A study of Mus musculus with 6 samples.

Results

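The nuclear genes of the oxidative phosphorylation complexes were described in pancreatic islets of BALB/c mice, across 3 classes of islet diameter and after treatment with an antibody against serpin B13. Members were all genes whose symbol starts with Nduf, Sdha, Sdhb, Sdhc, Sdhd, Uqcr, Cox4, Cox5, Cox6, Cox7, Cox8 or Atp5, and the prefix also set the complex. A gene was measured where a probe had a detection p under 0.05 on at least 2 of the 6 arrays, and the probe with the highest mean stood for the gene. Of 91 genes with a named probe, 78 were measured, among 10529 named genes and 16774 probes that met the same detection limit. They were 40 of 43 genes of complex I, 7 of 8 of complex II, 6 of 8 of complex III, 11 of 16 of complex IV and 14 of 16 of complex V.

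From the age of 2 weeks the mice were injected intraperitoneally 4 times with 25 µg of the monoclonal antibody B29 or of a control IgG antibody, which amounts to 100 µg. Islets were collected when the mice were 5 weeks old, with 2 weeks between the final dose and collection, and sorted by diameter into under 100, 100 to 200 and over 200 µm. Each of the 6 combinations of antibody and diameter was hybridised to 1 Illumina bead array, so no group had a replicate. The labels do not say how many mice were pooled or whether the 3 classes came from the same mice. The control islets were therefore also injected, and no uninjected islets were measured here.

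Oxidative phosphorylation is the last stage of fuel oxidation in mitochondria. Complex I (NADH dehydrogenase), complex II (succinate dehydrogenase), complex III (cytochrome bc1) and complex IV (cytochrome c oxidase) pass electrons to oxygen, and all but complex II pump protons. Complex V, the ATP synthase, lets the protons return through its membrane part, Fo, and makes ATP in its catalytic part, F1. In beta cells the ATP made from glucose closes potassium channels, and the calcium entry that follows releases insulin.

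Each array detected 32.7% to 35.1% of its 45281 probes. The islet hormones were bright on every array, with Ins2 at 13.97 to 14.20, Gcg at 13.65 to 13.97 and Sst at 12.65 to 13.42 log2 units. Markers of acinar cells, the enzyme-secreting cells around the islets, differed widely between the arrays. All 28 measured genes of 32 on the acinar list were lower in islets over 200 µm than in islets under 100 µm in the fit, 16 of them past the adjusted threshold (limma), with a median of -4.29 on the log2 scale. The summed linear intensity of the list was 183975.5 and 213986.2 under 100 µm (IgG and B29), 62777.8 and 81364.0 at 100 to 200 µm, and 48433.1 and 7882.1 over 200 µm. Every size comparison below, and the treatment comparison over 200 µm, was therefore made between RNA samples with unequal levels of acinar markers, whose part in the results was not tested. In bulk RNA, fewer cells of a type and less RNA per cell cannot be told apart.

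Of the 78 measured members, each represented by its brightest detected probe, 74 were detected on all 6 arrays. Ndufaf3 and Ndufb11 were detected on 5 arrays, and Cox6b2 and Ndufb4 on 2. The 13 members below the limit were Atp5k, Atp5md, Cox4i2, Cox7b, Cox7b2, Cox8b, Cox8c, Ndufab1, Ndufaf6, Ndufs1, Sdha, Uqcrfs1 and Uqcrq. These include Sdha, the flavoprotein of complex II, and Uqcrfs1, the Rieske iron-sulfur protein of complex III. Atp5g1, Cox7c, Cox8a and Ndufa4l2 were not analysed here. Of the 78, 66 were subunits, 11 were assembly factors (7 Ndufaf and 4 Sdhaf genes), and 1, Cox7a2l, is a factor that joins complexes III and IV. Ndufa4 was counted in complex I by its prefix, although its protein is now known as a subunit of complex IV.

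Promoters are shown for 5 members. Atp5b was the member that passed the test for islet size, Ndufs7 and Ndufaf4 had the lowest size differences, Ndufa9 stood near the top of the treatment and size orders, and Sdhb stands for complex II. Each is the stretch from 250 bases before to 50 bases after the RefSeq start in GRCm38.p6, 5′ to 3′ on the gene's strand. Atp5b lies at chr10:128083057-128083356 (plus strand), Ndufs7 at chr10:80249199-80249498 (plus), Ndufaf4 at chr4:24897833-24898132 (plus), Ndufa9 at chr6:126849095-126849394 (minus) and Sdhb at chr4:140961021-140961320 (plus). Capitals mark matches to any of 3 motifs of factors known to act on mitochondrial genes: nuclear respiratory factor 1 (GCGCATGCG), the ETS family that includes GABP (CCGGAAG) and YY1 (AAGATGGC), each searched on both strands.
Atp5b: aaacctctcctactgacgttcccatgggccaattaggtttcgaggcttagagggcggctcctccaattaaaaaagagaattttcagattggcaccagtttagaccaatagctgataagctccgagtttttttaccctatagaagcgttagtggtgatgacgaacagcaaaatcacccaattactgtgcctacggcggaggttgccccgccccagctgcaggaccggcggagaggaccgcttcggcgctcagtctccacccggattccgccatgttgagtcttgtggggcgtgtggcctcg
Ndufs7: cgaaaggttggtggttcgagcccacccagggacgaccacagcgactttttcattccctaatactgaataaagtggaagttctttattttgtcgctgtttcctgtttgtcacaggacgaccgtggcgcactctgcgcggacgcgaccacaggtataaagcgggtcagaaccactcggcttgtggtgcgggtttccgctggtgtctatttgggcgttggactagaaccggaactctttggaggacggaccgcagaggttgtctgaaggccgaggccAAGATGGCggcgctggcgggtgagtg
Ndufaf4: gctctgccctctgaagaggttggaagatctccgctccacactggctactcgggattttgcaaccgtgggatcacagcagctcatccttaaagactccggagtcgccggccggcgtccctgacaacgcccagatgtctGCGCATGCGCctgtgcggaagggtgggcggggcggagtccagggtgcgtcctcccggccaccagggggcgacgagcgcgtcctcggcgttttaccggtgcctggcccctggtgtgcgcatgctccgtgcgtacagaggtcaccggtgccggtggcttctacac
Ndufa9: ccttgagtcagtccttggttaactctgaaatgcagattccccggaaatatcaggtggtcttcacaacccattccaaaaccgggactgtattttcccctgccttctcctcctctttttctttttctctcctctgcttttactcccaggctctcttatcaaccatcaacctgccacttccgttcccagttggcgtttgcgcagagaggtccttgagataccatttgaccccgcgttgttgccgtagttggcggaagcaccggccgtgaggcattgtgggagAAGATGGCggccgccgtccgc
Sdhb: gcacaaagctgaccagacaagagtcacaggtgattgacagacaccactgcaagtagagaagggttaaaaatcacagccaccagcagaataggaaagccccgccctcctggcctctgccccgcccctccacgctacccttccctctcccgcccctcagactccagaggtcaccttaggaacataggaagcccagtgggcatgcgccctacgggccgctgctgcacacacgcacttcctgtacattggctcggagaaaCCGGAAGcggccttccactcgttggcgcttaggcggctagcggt

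The Atp5b promoter held none of the 3 motifs. Ndufs7 and Ndufa9, whose levels differed in opposite directions between large and small islets, both held the YY1 letters on the gene's own strand, 25 and 30 bases after the start. Ndufaf4 held the nuclear respiratory factor 1 letters, which overlap there on both strands, and Sdhb held the ETS letters. A match is a run of letters and not a shown site, and the YY1 letters contain ATG, so that a match can lie over a start codon. Of the 91 member genes, 76 had a promoter in the table, with 81 promoters in all. The nuclear respiratory factor 1 letters were in 12.4% of these promoters and in 1.75% of all 32851 promoters. The ETS letters were in 25.9% against 8.86%, and the YY1 letters in 13.6% against 2.75%. At least 1 of the motifs stood in 44.4% of member promoters and 12.5% of all. By complex, the ETS letters were in the promoters of 5 of 7 matched genes of complex II, and the YY1 letters in 8 of 39 of complex I and 0 of 7 of complex II.

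Antibody treatment was compared over the 3 diameter classes, which served as the only repeats. No member passed the test for B29 against IgG: 0 of 78 had an adjusted p under 0.05 (limma fit over all probes with diameter as a factor, lowest adjusted p = 0.966). The test called 0.00596% of all probes. Without adjustment, 3 members had a p under 0.05, against 4.67% of all probes. The members' median log2 ratio was -0.01 (all probes -0.00), with 39 of 78 above 0 and a range from -0.27 to 0.70. The 95% interval of a member's ratio reached 0.34 to either side at the median, or 1.26-fold, before any adjustment for the number of probes. The adjusted threshold was stricter, and even the highest ratio, 0.70, did not pass it. Treatment differences below 1.26-fold, and larger ones too, could therefore go undetected with 6 arrays. For 65 members the ratio itself was within 0.2 of 0.

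Atp5mpl, which encodes a small proteolipid attached to the ATP synthase, had the highest treatment ratio. Its level was 8.57 in IgG and 9.69 in B29 islets under 100 µm, 9.05 and 9.96 at 100 to 200 µm, and 9.79 and 9.88 over 200 µm. B29 was the higher array in all 3 classes, by 1.11, 0.90 and 0.09, and 2 of the IgG arrays lay below every B29 array. The mean ratio was 0.70 ± 0.20 (SE; limma, adjusted p = 0.966), or 1.63-fold.

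Ndufa9, an accessory subunit near the ubiquinone site of complex I, followed with 0.64 ± 0.23 (SE; limma, adjusted p = 0.966). Its levels were 7.95 and 8.75 under 100 µm, 7.72 and 8.98 at 100 to 200 µm, and 9.001 and 8.87 over 200 µm, IgG before B29. The B29 array was above IgG in the 2 smaller classes and below it in the largest. Ndufa4 had ratios of 0.19, 0.23 and 0.51 in order of size and a mean of 0.31 ± 0.14 (SE; limma, adjusted p = 0.966). The remaining members of the highest 8 were Ndufb3 (0.26), Ndufaf7 (0.22), Ndufa13 (0.22), Ndufa1 (0.21) and Ndufa6 (0.20), all named for complex I.

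The lowest ratios were those of Sdhaf3, an assembly factor of complex II, at -0.27, and Ndufs8, an iron-sulfur subunit of complex I, at -0.26. Cox6a2 (-0.26), Cox5a (-0.24), Ndufs6 (-0.23), Sdhb (-0.22), Uqcrb (-0.17) and Uqcrc1 (-0.17) completed the lowest 8. A second detected probe read -0.05 for Sdhb and -0.06 for Ndufs6. Sdhb carries the iron-sulfur centres of complex II, Cox5a is a subunit of cytochrome c oxidase, and Uqcrc1 is a core protein of complex III. Cox6a2, the heart and muscle isoform of a cytochrome c oxidase subunit, was at 10.61, 10.91 and 10.93 in IgG islets and at 10.40, 10.40 and 10.86 in B29 islets in order of size. Of the skeletal muscle markers, Ckm, Myh1, Myh4 and Tnnt3 were not detected, Acta1 was at 5.71 to 6.04 and Mylpf at 4.61 to 4.85.

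The complexes differed little in their treatment medians, which were 0.04 for complex I, -0.13 for complex II, -0.04 for complex III, -0.10 for complex IV and 0.07 for complex V. Members near these medians were Ndufaf3 (0.04), Sdhaf2 (-0.13), Uqcr10 (-0.09), Cox7a1 (-0.10) and Atp5a1 (0.07). A second detected Uqcr10 probe read 0.06. In complex IV 2 of 11 members had a ratio above 0 and in complex V 10 of 14, beside 49.9% of all probes. None of these members passed the test. The 66 subunits had a median of 0.01 and the 11 assembly factors one of -0.04. No difference between complexes was tested.

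**Figure D1:**
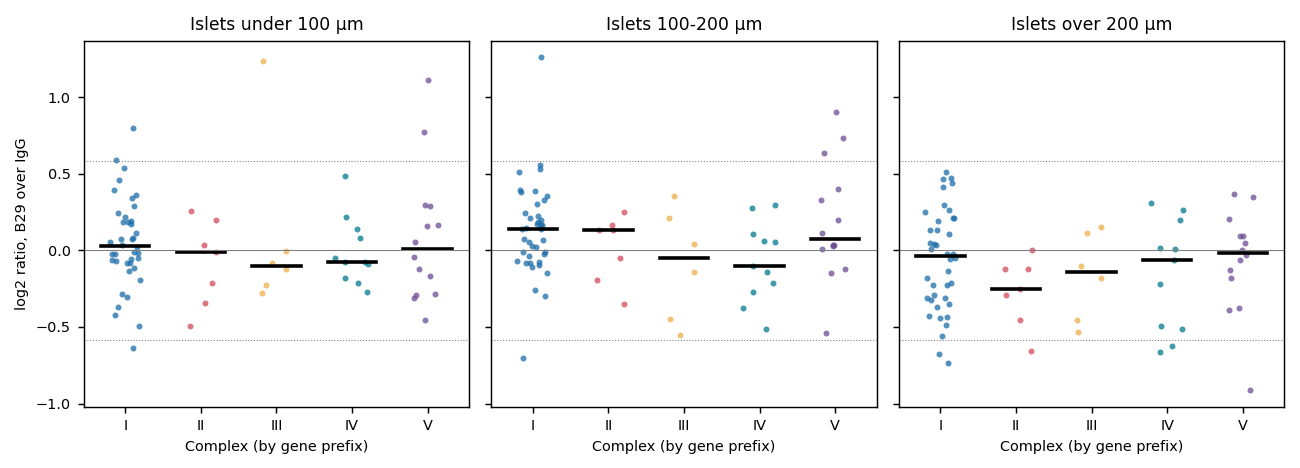
The log2 ratio of B29 over IgG (vertical axis) is plotted for the 78 genes by complex, with 1 panel per diameter class and 1 array on each side of a ratio. Points are genes, black lines are complex medians and dotted lines mark 1.5-fold. Medians lie between -0.25 and 0.14. Atp5mpl and Ndufa9 are past 1.5-fold both under 100 and at 100 to 200 µm, higher with B29. Atp5j is past it at 100 to 200 and over 200 µm, with opposite signs. The other genes past 1.5-fold are so in 1 class only.

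Ratios inside a single class rest on 1 array per antibody and are described without a test. The members' median ratio was -0.01 under 100 µm, 0.06 at 100 to 200 µm and -0.06 over 200 µm, with 36, 49 and 32 of 78 above 0. For all 16774 probes the medians were -0.00, -0.01 and 0.01, with 8302, 7999 and 8638 above 0. Under 100 µm 6 members were at least 1.5-fold apart, where 6.04% of all probes were: Uqcrc2 (1.23), Atp5mpl (1.11), Ndufa9 (0.80), Atp5l (0.77) and Ndufa6 (0.59) were higher with B29, and Ndufs8 (-0.63) was lower, followed by Sdhaf3 (-0.49) and Ndufv3 (-0.49). Uqcrc2 is the second core protein of complex III, and Atp5l is subunit g of the ATP synthase. At 100 to 200 µm 5 members were so far apart, beside 3.45% of all probes. Ndufa9 (1.26), Atp5mpl (0.90), Atp5j (0.73) and Atp5h (0.64) were higher with B29 and Ndufs6 (-0.70) was lower, followed by Uqcrc1 (-0.55) and Atp5b (-0.54). Both detected B cell markers of 5 listed, Cd79b and Igk-C, were also higher on the B29 array of this class, with a summed linear intensity of 686.0 against 49.6 with IgG and 42.4 to 56.1 on the other arrays, and their part in the ratios was not tested.

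Over 200 µm 6 members (7.69%) were at least 1.5-fold lower with B29 and 0 were higher. Of all probes, 5.84% were that far apart in either direction, and they were not counted by direction. The 6 were Atp5j (-0.91), Ndufaf1 (-0.73), Ndufa10 (-0.68), Cox6b1 (-0.66), Sdhaf4 (-0.66) and Cox6a1 (-0.63). Ndufaf1 and Sdhaf4 are assembly factors of complexes I and II. The highest ratios in this class were Ndufa4 (0.51), Ndufaf7 (0.47) and Ndufv2 (0.47). The acinar list's median B29 ratio was 0.32, 0.44 and -3.06 in the 3 classes, so the largest class was also the one whose acinar markers differed most between antibodies, and their part in the ratios was not tested.

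The sign of the treatment ratio repeated in all 3 classes for 13 members, 8 higher and 5 lower with B29. This was 16.7% of members, against 25.5% of all probes. The 8 were Atp5mpl, Atp5o, Ndufa1, Ndufa2, Ndufa4, Ndufaf7, Ndufb3 and Ndufv1, and the 5 were Cox6a2, Ndufaf5, Ndufb9, Sdhaf2 and Sdhaf3. Uqcrc2, with ratios of 1.23, -0.45 and -0.53, and Atp5j, with -0.28, 0.73 and -0.91, swung most widely between the classes among the 78 members. A second Atp5j probe read 0.01, 0.05 and 0.15 in the same classes.

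Islet size gave the one member that passed a test. Atp5b, the catalytic beta subunit of F1, rose 3.80-fold in islets over 200 µm relative to islets under 100 µm. Its level under 100 µm was 9.87 with IgG and 9.75 with B29, at 100 to 200 µm 11.69 and 11.16, and over 200 µm 11.55 and 11.92. Both small-islet arrays lay more than 1 log2 unit below the other 4, and the 2 larger classes overlapped. The difference was 1.93 ± 0.22 (SE; limma, adjusted p = 0.0101), and 1.68 with IgG and 2.17 with B29 alone. Between 100 to 200 and under 100 µm it was 1.62 ± 0.22 (SE; limma, adjusted p = 0.0541), 3.07-fold and just outside the threshold. The call for over 200 against under 100 µm was lost without the IgG array under 100 µm (adjusted p = 0.258, limma) or the B29 array under 100 µm (adjusted p = 0.576), while the difference remained 1.95 and 1.91. It was also lost without background correction (adjusted p = 0.197), with a normexp offset of 50 (adjusted p = 0.212) and when all 45281 probes were tested (adjusted p = 0.333), and Atp5b was measured by 1 detected probe.

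**Figure D2:**
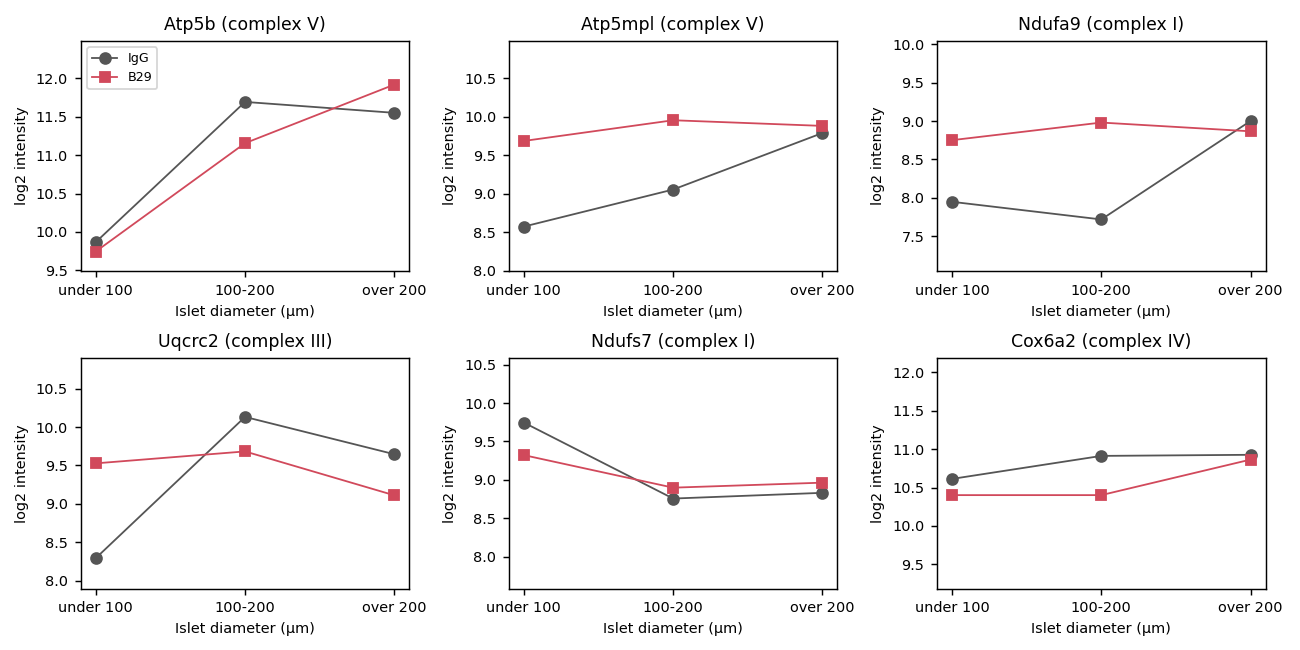
Levels in log2 intensity (vertical axis, 3 log2 units high in every panel) are plotted against islet diameter class for 6 genes, with 1 point per array, circles for IgG and squares for B29. Atp5b is lowest in both arrays under 100 µm, Ndufs7 is highest there, and Atp5mpl and Ndufa9 separate by antibody in the 2 smaller classes, and Uqcrc2 mostly under 100 µm.

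Among all members, 1 of 78 was called for over 200 against under 100 µm, beside 0.531% of all probes. Without the B29 array over 200 µm 3 were called, Atp5b (1.58), Atp5mpl (1.16) and Ndufa9 (1.17), beside 0.65% of all probes, the class over 200 µm being 1 IgG array in that fit. Unadjusted, 12 members had a p under 0.05, against 10.4% of all probes. The members' median difference was 0.13 and that of all probes 0.02. The members' median was 0.07 without the IgG array over 200 µm and 0.20 without the B29 array over 200 µm. In the full fit 67.9% of members were above 0 against 53.1% of probes. Large islets were higher than small ones under both antibodies for 37 members (47.4%; all probes 30.2%) and lower for 15 (19.2%; all probes 24.8%). The members were brighter than all probes, with a median level of 8.39 to 8.60 per array against 5.47. The part of brightness in these shares was not tested. The members' median difference was 0.19 with IgG alone and 0.08 with B29 alone. The 95% interval reached 0.42 to either side at the median, or 1.33-fold.

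The order by complex was V (0.30), IV (0.23), III (0.14), I (0.09) and II (-0.04), given as median log2 differences. Members near these medians were Atp5c1 (0.20), Cox6b2 (0.23), Uqcr10 (0.19), Ndufa12 (0.10) and Sdhaf4 (-0.04). Cox6b2 was a dim gene, detected on 2 arrays at a mean level of 4.51, and the 2 detected Uqcr10 probes read 0.19 and -0.28. With IgG alone the medians of V, IV, III, I and II were 0.33, 0.16, 0.13, 0.12 and 0.09. With B29 alone they were 0.12, 0.12, 0.03, 0.09 and -0.18, so the order was not the same under both antibodies. The complex V median was also 0.19 with cyclic loess, 0.19 as a mean over each gene's detected probes, 0.20 with the acinar markers left out before normalization, 0.19 without the IgG array over 200 µm and 0.47 without the B29 array over 200 µm. Neighbouring complexes in this order differ by less than the distance between the antibodies in complex V, and no difference between complexes was tested. Subunits had a median of 0.17 (46 of 66 above 0) and assembly factors one of 0.05 (6 of 11 above 0).

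**Figure D3:**
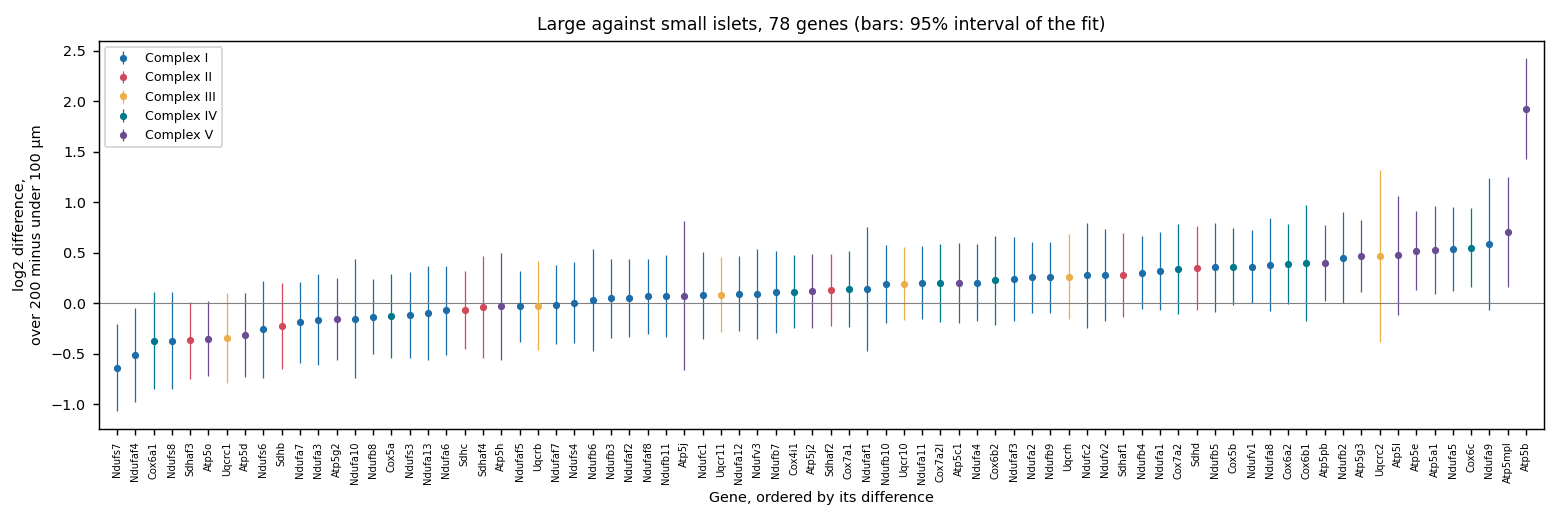
The log2 difference between islets over 200 and under 100 µm (vertical axis) is shown for each of the 78 genes in order, coloured by complex, with bars for the 95% interval of the fit. Atp5b stands apart at 1.93, and the other genes run without a gap from -0.64 to 0.71.

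The genes of the ATP synthase did not all lie on the same side of 0. In F1, Atp5b was followed by the alpha subunit Atp5a1 (0.53) and the epsilon subunit Atp5e (0.52), while the gamma subunit Atp5c1 was at 0.20 and the delta subunit Atp5d at -0.32. Atp5a1 was at 6.40 and 6.09 under 100 µm (IgG and B29) and at 6.67 and 6.87 over 200 µm. Atp5d was at 8.61 and 8.44 under 100 µm and at 8.18 and 8.23 over 200 µm, so that the groups did not overlap in either gene and lay in opposite order. Atp5o, the OSCP subunit that ties F1 to the stalk, was at -0.35. In the stalk and membrane part, Atp5g3, which encodes the ring subunit c, was at 0.47 and its paralogue Atp5g2, which encodes the same mature protein, at -0.15. Atp5mpl was at 0.71 (1.22 with IgG, 0.20 with B29), Atp5l at 0.48 and the stalk subunit Atp5pb at 0.40. The chosen probes of Atp5l and Atp5pb gave the highest readings of these genes. A second detected Atp5l probe read 0.05, and the 4 detected Atp5pb probes lay between 0.02 and 0.40. Of the genes named here, Atp5b alone passed the test. Of the 14 genes, 10 were above 0 (all probes 53.1%) and 8 were higher in large islets under both antibodies (all probes 30.2%). Without Atp5b the complex V median was 0.20.

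In cytochrome c oxidase, 9 of 11 members were above 0 (all probes 53.1%) and 7 were higher in large islets under both antibodies (all probes 30.2%). Cox6c, a small nuclear subunit, was at 8.87 and 8.77 under 100 µm (IgG and B29), 9.03 and 9.33 at 100 to 200 µm, and 9.24 and 9.50 over 200 µm. The large-islet arrays of each antibody were above its small-islet array, and the difference was 0.55 ± 0.17 (SE; limma, adjusted p = 0.313). Cox5b, a subunit facing the matrix, was at 0.36, Cox4i1, the common isoform of subunit 4, at 0.12 and Cox5a at -0.12. A second detected Cox5b probe read 0.13. The isoforms of subunit 6a read 0.39 for the muscle form Cox6a2 and -0.37 for the widespread form Cox6a1. For Cox6a1, however, the 2 detected probes read -0.37 and 0.24. For Cox6b1 they read 0.40 and -0.17. Of the subunit 7a isoforms, the muscle form Cox7a1 was at 0.14 and the common form Cox7a2 at 0.34.

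The 2 lowest members belonged to complex I. Ndufs7, an iron-sulfur subunit next to the ubiquinone site, was at 9.75 and 9.32 under 100 µm (IgG and B29), 8.76 and 8.90 at 100 to 200 µm, and 8.83 and 8.96 over 200 µm. Both small-islet arrays were above the other 4. The difference of over 200 from under 100 µm was -0.64 ± 0.19 (SE; limma, adjusted p = 0.292) and that of 100 to 200 from under 100 µm -0.71 ± 0.19 (SE; limma, adjusted p = 0.474). Ndufaf4, an assembly factor, was at 6.78 and 6.95 under 100 µm and at 6.59 and 6.10 over 200 µm, a difference of -0.51. Ndufs8, another of the iron-sulfur subunits, was at -0.37. Other core subunits lay on either side of 0, with Ndufv1, which binds NADH, at 0.36, Ndufv2 at 0.28 and Ndufs3 at -0.12. The accessory subunit Ndufa5 was at 0.54, with a second detected probe at 0.29, and Ndufa9 was at 0.58. For Ndufa9 the difference was 1.05 with IgG and 0.12 with B29. Of the 33 complex I subunits, 23 were above 0 and 0 were called (limma, 4 with an unadjusted p under 0.05). Of all probes, 53.1% were above 0, 0.531% were called and 10.4% had an unadjusted p under 0.05.

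Complexes II and III had few measured subunits. Sdhb was at -0.23, Sdhc at -0.07 and Sdhd at 0.35, the last 2 being membrane anchors of succinate dehydrogenase. For Sdhb, however, the 2 detected probes read -0.23 and 0.13. Sdhaf3 was at -0.37. In complex III Uqcrc1 was at -0.34 and Uqcrc2 at 0.47 ± 0.37 (SE; limma, adjusted p = 0.723), so the 2 core proteins had opposite signs. Uqcrc2 was at 8.29 in IgG and 9.53 in B29 islets under 100 µm, 10.13 and 9.68 at 100 to 200 µm, and 9.65 and 9.11 over 200 µm. The IgG array under 100 µm was the lowest of the 6, and the arrays under B29 spanned a narrower range.

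**Figure D4:**
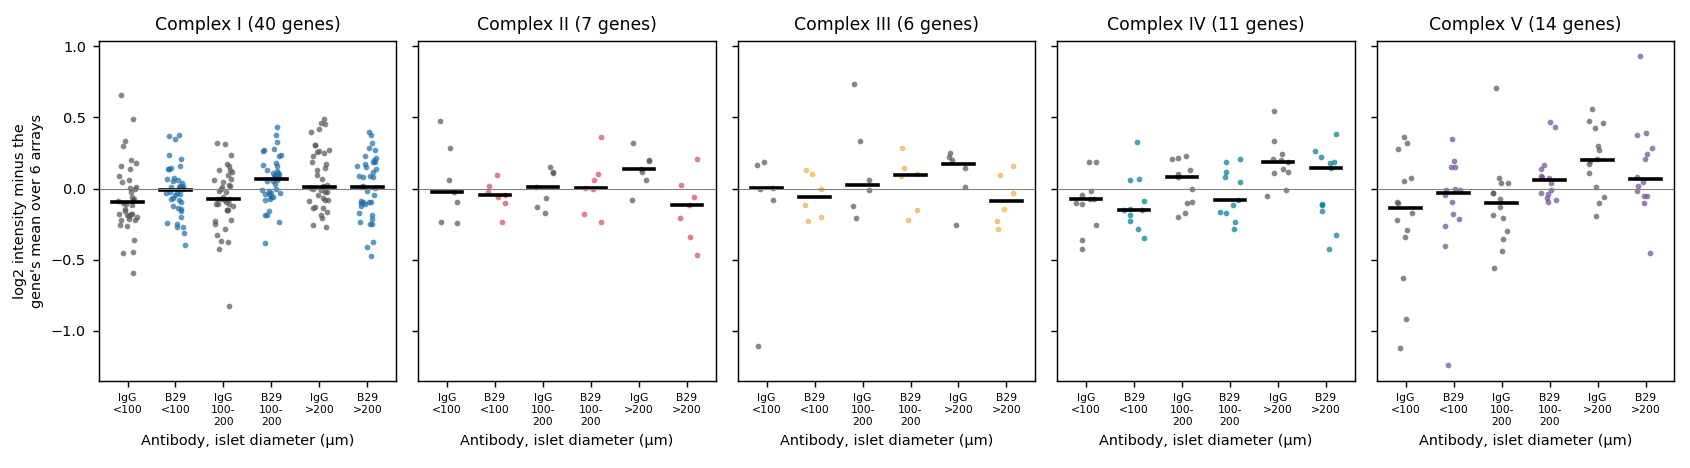
Each gene's log2 intensity minus its own mean over the 6 arrays (vertical axis) is plotted by array and complex, with IgG in grey, B29 in colour and black lines for medians. Complex V medians run from -0.14 (IgG under 100 µm) to 0.20 (IgG over 200 µm), and the medians of complex I stay between -0.09 and 0.07.

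The middle class was compared with both neighbours. Against islets under 100 µm, 0 of 78 members were called (limma, 6 with an unadjusted p under 0.05), beside 0.0835% of probes called and 5.96% unadjusted. The median was 0.08 (all probes 0.01). After Atp5b, the highest were Uqcrc2 (1.00), Ndufv1 (0.54) and Ndufb9 (0.47), and the lowest Ndufs7 (-0.71), Ndufs3 (-0.46), Ndufc1 (-0.42) and Cox6a1 (-0.40). The Uqcrc2 difference was 1.84 with IgG and 0.16 with B29. Between over 200 and 100 to 200 µm, limma called 0 members and 0% of all probes, with 1 member and 4.83% of probes at an unadjusted p under 0.05. There the median was 0.08, but it was -0.01 without the IgG array at 100 to 200 µm, -0.00296 without the IgG array over 200 µm and -0.02 with the B29 arrays alone. The ends were Ndufa9 (0.58), Ndufc1 (0.50), Atp5pb (0.36) and Atp5h (0.34) against Uqcrc2 (-0.53), Sdhaf4 (-0.37), Uqcrc1 (-0.25) and Ndufs8 (-0.22). Complex V had 12 of 14 members above 0 in this step, beside 52.3% of all probes, with a median of 0.19. The complex V median was 0.30 with the IgG arrays alone and 0.08 with the B29 arrays alone.

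Where a gene had several detected probes, they differed by at least 0.5 in the large against small difference for 4 genes. Beside Cox6a1 and Cox6b1 these were Ndufa8, with 0.38 and -0.16, and Ndufv3, whose 3 probes lay between -0.08 and 0.46. Across the 78 members, the large against small difference with IgG correlated with that with B29 at r = 0.34 (Spearman 0.22), and over all 16774 probes at 0.45 (0.17). The class ratios of B29 to IgG correlated across members at 0.05, -0.09 and -0.22 for the 3 pairs of classes, and over all probes at 0.06, -0.00 and -0.08. These are correlations across genes that share arrays, given as descriptions.

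Other mitochondrial genes were followed on lists for comparison, and limma called 0 of them in the treatment and the large against small comparisons. The tricarboxylic acid cycle and pyruvate dehydrogenase list, which supplies NADH and succinate, had a large against small median of -0.06, with 8 of 20 above 0. The 71 measured proteins of the mitochondrial ribosome had a median of -0.05, with 31 above 0. Assembly factors outside the prefixes had a median of 0.01 (15 of 27 above 0) and genes of mitochondrial biogenesis one of 0.00 (8 of 16). Among carriers and coupling genes the median was 0.09 (8 of 14), with Etfdh, which passes electrons from fat oxidation to ubiquinone, at 1.02 ± 0.23 (SE; limma, adjusted p = 0.133). Etfdh was at 4.87 and 5.41 under 100 µm, 6.04 and 6.04 at 100 to 200 µm, and 6.38 and 5.96 over 200 µm (IgG and B29). The only measured gene of mitochondrial DNA, mt-Atp6, a membrane subunit of the ATP synthase, was at 0.62 ± 0.25 (SE; limma, adjusted p = 0.428). At an unadjusted p under 0.05 the large against small test held 0 of the 20, 10 of the 71, 2 of the 27, 3 of the 16 and 6 of the 14 genes of these 5 lists, in the order given, beside 10.4% of all probes. The treatment test held 1, 4, 2, 1 and 0, beside 4.67% of all probes. For treatment the medians of these lists were 0.06, 0.01, -0.02, -0.12 and 0.03, in the same order.

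**Figure D5:**
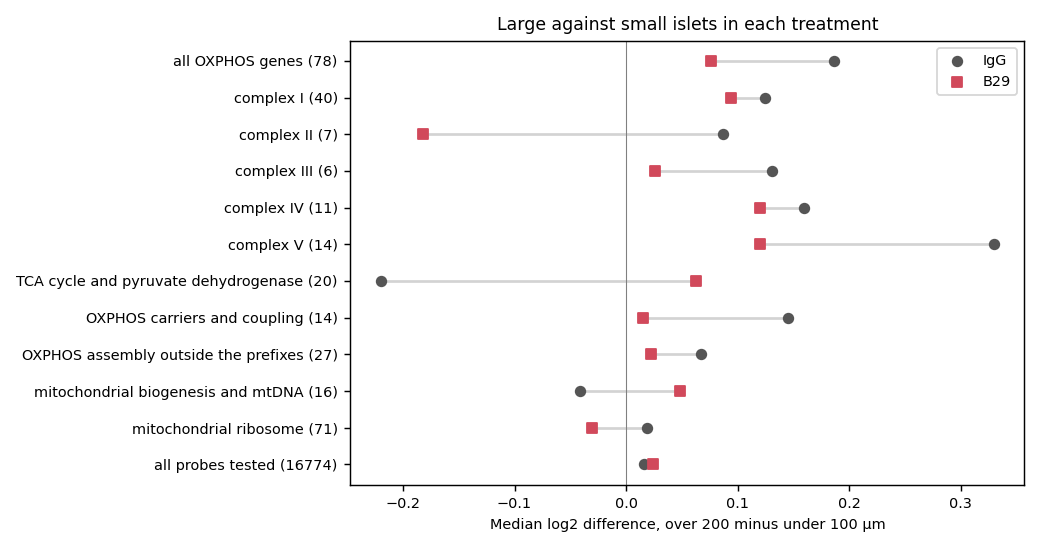
Median log2 differences between islets over 200 and under 100 µm (horizontal axis) are plotted for each complex, other mitochondrial lists and all probes, with circles for IgG, squares for B29 and the number of genes or probes in brackets. Complexes I, III, IV and V are above 0 under both antibodies, complex II and the lists of the tricarboxylic acid cycle, mitochondrial biogenesis and the mitochondrial ribosome have opposite signs under the 2 antibodies, and all probes stand near 0.02.

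Markers of other cell types also differed with size, and their part in the members' differences was not tested. All 10 measured beta cell genes of 14 listed were above 0, with a median of 0.19, and 1, the amyloid peptide gene Iapp, was called at 1.19 (limma, adjusted p = 0.0185). The summed intensity of the beta cell list was 28187.2 and 24982.9 under 100 µm, 30502.8 and 29483.2 at 100 to 200 µm, and 30875.0 and 29499.9 over 200 µm (IgG and B29). The large against small median was 0.58 for the delta and PP cell markers (5 of 6 above 0), 0.40 for fibroblast markers (6 of 6), 0.38 for red blood cell markers (4 of 4), 0.27 for alpha cell markers (2 of 3), 0.23 for macrophage markers (5 of 7) and 0.14 for endothelial markers (5 of 7). For duct cell markers it was -0.60 (1 of 3 above 0), with Muc1 called at -1.90 (limma, adjusted p = 0.0144). With the acinar markers left out before normalization, the members' large against small median was 0.11, the complex V median 0.20 and the Atp5b difference 1.79 (limma, adjusted p = 0.0117).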

How the data were processed

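Islet RNA (Trizol, then RNeasy) was amplified and labelled with biotin per the labels' protocols, and 1 array was measured per antibody and diameter class. The deposited raw table listed for every probe its intensity on each array, not normalized, and a deposited detection p-value. Text stood where the intensity belongs in 22 rows, which were left out. The authors' deposited table of log2 values was used for every level, and limma 3.34.9 is named per the submitters' processing notes. Running neqc again (offset 16, quantile normalization) gave values within 0.00037 of the authors' log2 values. The compression of low intensities by that offset makes differences of dim genes smaller.

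Gene names came from the platform's probe table, updated through RefSeq (GRCm38.p6): 35784 of 45281 probes had 1 name and 9497 had none. The older symbol Atp5f1 was read as Atp5pb. The probes' own sequences were not used, so cross-hybridisation to related genes or pseudogenes was not analysed here.

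All 16774 probes with a detection p under 0.05 on at least 2 arrays entered 1 limma 3.58.1 fit (R 4.3.3; lmFit and eBayes) with antibody and diameter class as additive factors, leaving 2 residual degrees of freedom and 6.60 prior ones. P-values were adjusted over all probes by the Benjamini-Hochberg method at 0.05. Repeats of an effect are other diameter classes or the other antibody, so p-values measure spread between these samples only, and the number of arrays limits the precision. Members and lists were chosen with earlier results of these data known. Genes named are those past the test, the 8 highest and lowest for treatment and for over 200 against under 100 µm, the 4 highest and lowest for the other size comparisons, the 3 highest and lowest and all those 1.5-fold apart per class, core subunits, tissue isoforms, and genes whose probes differ by at least 0.5. Further genes were chosen after their values were seen. Alternatives were other normalizations, background corrections, filters, probe rules and priors, the other factor left out, and each array or class left out.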

Additional observations from a re-analysis of the deposited data

Results flagged for a closer look

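Atp5j, which encodes coupling factor F6 in the stalk of the ATP synthase, had B29 to IgG ratios of opposite sign in the 2 larger classes. The log2 ratio was 0.73 at 100 to 200 µm and -0.91 over 200 µm, from levels of 9.09 and 9.83 and of 9.85 and 8.94 (IgG and B29). Each ratio is 1 array against 1, and the difference between the classes was not tested. The second detected Atp5j probe read 0.05 and 0.15 in the same classes.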

How the results depend on the processing

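The fit compared the antibodies within diameter classes. Each group had 1 array, so there were no replicate numbers to pair further. B29 against IgG called 0 members under every alternative, and the members' median stayed between -0.0341 and 0.0633 when classes were left out (0.0633 without the largest class). For over 200 against under 100 µm, the count of called members was 0 without background correction, with normexp and an offset of 50 (Atp5b adjusted p = 0.212, limma) and with no filter. It was 0 to 3 when arrays were left out: without the B29 array over 200 µm, Atp5b (1.58), Atp5mpl (1.16) and Ndufa9 (1.17) were called, beside 0.65% of all probes, while all probes called were 1.34% without IgG over 200 µm and 0.376% without either array at 100 to 200 µm, with Atp5b called in each. The members' median was 0.0696 to 0.201 with arrays left out. The complex V median was 0.19 to 0.47 with arrays left out and 0.12 with B29 arrays alone. For 100 to 200 against under 100 µm, Atp5b became 1 called member with the acinar markers left out, with a trended and robust prior, without the antibody factor, or without either array over 200 µm (0 to 1 when arrays were left out). The members' median there was 0.0555 with cyclic loess, 0.0542 without background correction, 0.0590 with an offset of 50, 0.0729 for probes detected on all 6 arrays, 0.0497 as a mean over probes, 0.0543 without the acinar markers, 0.0433 to 0.133 with arrays left out, 0.0900 with IgG alone and 0.0905 with B29 alone. Median centring moved the median of all probes to 0.10, 0.19 and -0.09 in the 3 size comparisons (over 200 against under 100, 100 to 200 against under 100, over 200 against 100 to 200 µm) and that of the members to 0.22, 0.33 and -0.10, so that the members lay 0.12, 0.14 and -0.01 from all probes. The Ndufa9 difference between over 200 and 100 to 200 µm reversed to -0.11 with B29 arrays alone. Members at least 1.2-fold apart numbered 28, 27 and 36 in the classes under 100, 100 to 200 and over 200 µm, and at least 2-fold apart 2, 1 and 0. The cause of these changes was not tested. Low intensities limit Cox6b2, Ndufb4 and the undetected members.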
